A study of Sus scrofa domesticus with 4 samples.

Results

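The pituitary glycoprotein hormones LH and FSH share the alpha subunit encoded by CGA and take their identity from a beta subunit, encoded by LHB or FSHB. The 6 genes described here are these 3 subunit genes, GNRHR, which encodes the receptor for gonadotropin-releasing hormone, and the transcription factor genes NR5A1 and GATA2. They were chosen by name: every probe of a 2-colour porcine oligonucleotide array whose RefSeq mRNA accession belongs to 1 of these genes was taken, which gave 10 of 43603 probes and 6 of the 3029 genes that could be given a symbol. LHB and GNRHR had 2 probes each, NR5A1 had 3, and FSHB, CGA and GATA2 had 1 each.

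RNA came from the anterior pituitary of 8 mature gilts, which are young female pigs, of a Large White x Polish Landrace cross. The 4 pregnant gilts had been bred naturally and were killed on days 15 to 16 of pregnancy, and the 4 cyclic gilts on days 15 to 16 of the estrous cycle. Each of 4 arrays held the RNA of 1 pregnant and 1 cyclic gilt, so an array was 1 independent pair. By the label fields the pregnant gilt was in Cy3, read as green, on arrays 1 and 3 and in Cy5, read as red, on arrays 2 and 4, whereas the text of the labelling protocol gives pregnant RNA Cy3 throughout. The log2 ratios given by the authors equal the scanner ratios turned by the label fields on all 4 arrays. The label fields were followed, and the result of the other reading is given where it turns a direction. The pregnant channels had 50.4% to 60.4% of their spots well above background and the cyclic channels 52.5% to 66.5%, and 0 spots were saturated.

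Gonadotropes are the pituitary cells that make LH and FSH. Pulses of gonadotropin-releasing hormone from the hypothalamus act on the receptor encoded by GNRHR and drive LHB, FSHB and CGA transcription and hormone release, while activin favours FSHB and inhibin and follistatin oppose it. NR5A1, steroidogenic factor 1, marks gonadotropes and activates LHB and GNRHR, and GATA2 acts in gonadotropes and in thyrotropes, which also make the alpha subunit for thyrotropin. In RNA of anterior pituitary tissue with all its cells, fewer gonadotropes and less RNA per gonadotrope cannot be told apart.

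All 6 genes were detected, and none of the 10 probes passed the test over all probes (limma with Benjamini-Hochberg adjustment, 0 of 10 probes, as 0 of 25197 and so 0% of all probes fitted). LHB had an estimate of -0.42 (log2 of pregnant over cyclic), GNRHR -0.65, NR5A1 -0.38 and GATA2 -0.65, FSHB 0.42 and CGA -0.099, by the brightest probe of each gene. Estimates were below 0 for 9 of the 10 probes, against 52.4% of all probes fitted, with a median of -0.38 over the 10 and of -0.0097 over all. The tally was 7 of 10, with a median of -0.16, with background parameters from all spots, and 8 of 10 without array 2. With the dyes read as a single orientation the tally turned, to 3 of 10 probes below 0 and a median of 0.11. At an unadjusted p under 0.05 in limma stood 1 of the 10, an LHB probe, and 8.01% of all probes fitted, so this share was near that of the array as a whole. The median over the 10 was -0.24 without array 1, -0.17 without array 2, -0.39 without array 3 and -0.57 without array 4. These fits keep a dye term, so the array left alone in its dye orientation weighs as much as the other orientation as a whole. The 10 probes are not independent, since probes of a gene read the same transcript, and the genes were proposed with earlier results of these data known.

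LHB encodes the subunit that makes LH the trigger of ovulation and a support of the corpus luteum. On its brighter probe (A_72_P223612, accession NM_214080) the normalized log2 intensity was 16.48, 16.75, 16.69 and 16.56 in the pregnant gilts of arrays 1 to 4, against 17.26, 17.36, 16.88 and 16.68 in the cyclic gilts. The pregnant gilts lay within 0.27 of each other, the cyclic gilts of arrays 1 and 2 stood above all others, and the groups overlapped, since the pregnant gilts of arrays 2 and 3 lay above the cyclic gilt of array 4. The means were 16.62 ± 0.12 in pregnant and 17.04 ± 0.32 in cyclic gilts (SD, n = 4 each). The log2 ratios of pregnant over cyclic were -0.78, -0.60, -0.19 and -0.12 on arrays 1 to 4. As processed here all 4 were below 0, as for 7.73% of all probes fitted. The limma estimate was -0.42 ± 0.15 (SE), a fold of 0.746 with a 95% interval of 0.574 to 0.968 (unadjusted p = 0.0338, limma adjusted p = 0.605).

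The other LHB probe (A_72_P651922) read the same transcript a little less brightly. It stood at 16.00, 15.90, 16.21 and 15.70 in the pregnant gilts of arrays 1 to 4 and at 16.35, 16.84, 16.06 and 15.98 in the cyclic gilts. The cyclic gilts of arrays 1 and 2 were again the highest, but array 3 turned, with ratios of -0.35, -0.94, 0.15 and -0.28. Its limma estimate was -0.35 ± 0.16 (unadjusted p = 0.0711, adjusted p = 0.605), and the ratios of both probes differed by 0.16 to 0.43 on single arrays. The brighter probe kept no unadjusted p under 0.05 when array 1 was left out, at -0.28 ± 0.18, or array 2, at -0.30 ± 0.17 (SE). With the dyes read as a single orientation it stood at -0.062 and the other probe at 0.26.

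Very bright probes as a group kept a trend with dye after normalization, and LHB and CGA are among the very bright. The limma fit gave LHB itself a red over green effect of 0.062 ± 0.15 (SE) on its brighter probe. This effect was -0.26 ± 0.16 on the other LHB probe and 0.64 ± 0.12 for CGA. The 436 probes above a mean log2 intensity of 16 had median ratios of -0.24, 0.14, -0.27 and 0.15 on arrays 1 to 4, and 68.8% of them had an estimate below 0. With the median of probes of like brightness subtracted on each array, a step added after the values were seen, the brighter LHB probe gave -0.53, -0.77, 0.0995 and -0.23. Array 3 was then no longer below 0, and the limma estimate was -0.36 ± 0.16 (unadjusted p = 0.0685). With median centring in place of loess normalization the 4 ratios of this probe were -1.62, 0.12, -1.18 and 0.99, with an estimate of -0.42. With background parameters from all spots array 4 stood at 1.13 and the estimate at -0.12, and with the processed intensities array 3 stood at 0.049.

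**Figure D1:**
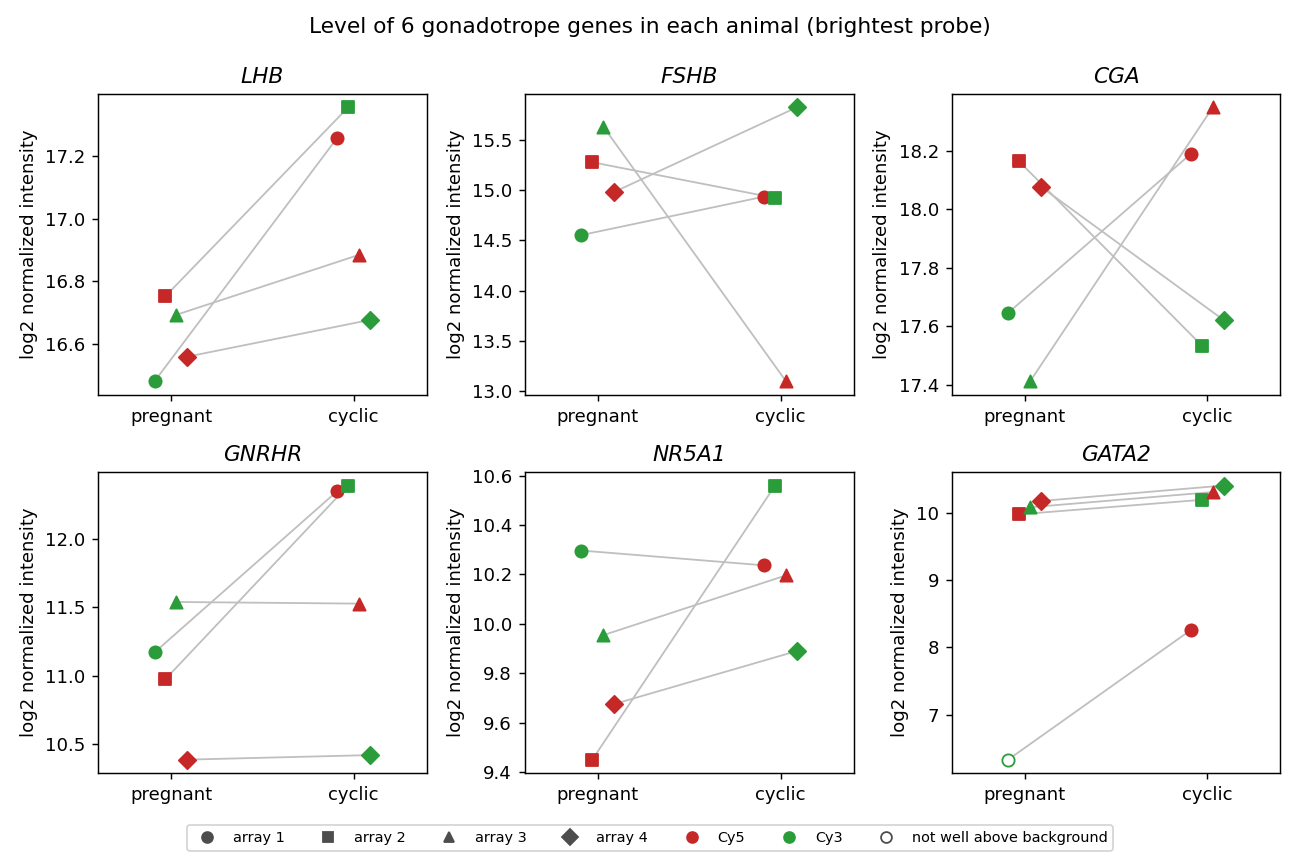
Normalized log2 intensity (y axis) of the brightest probe of each gene in the 4 pregnant gilts (left) and the 4 cyclic gilts (right). A grey line joins the pair of 1 array, colour gives the dye and an open symbol a channel not well above background. The cyclic gilts of arrays 1 and 2 are the highest for LHB (17.26 and 17.36) and GNRHR (12.35 and 12.39), CGA separates by dye, and FSHB is lowest in the cyclic gilt of array 3 (13.10).

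FSHB encodes the subunit of FSH, the hormone that recruits ovarian follicles. Its probe (A_72_P232637, NM_213875) stood at 14.55, 15.27, 15.63 and 14.98 in the pregnant gilts of arrays 1 to 4, against 14.93, 14.92, 13.10 and 15.82 in the cyclic gilts. The groups overlapped fully, and the cyclic gilts held both the highest and the lowest value. The means were 15.11 ± 0.46 in pregnant and 14.69 ± 1.14 in cyclic gilts (SD, n = 4 each). The ratios were -0.38, 0.35, 2.53 and -0.84, 2 below and 2 above 0. Array 3 carried the sign of the mean, because its cyclic gilt was low. The limma estimate was 0.42 ± 0.48 (SE), a fold of 1.33 with a 95% interval of 0.575 to 3.09 (adjusted p = 0.803). It was -0.31 without array 3, 1.14 without array 1, 0.12 without array 2 and 0.71 without array 4. Without array 1, array 3 stood alone in its dye orientation and carried as much weight as arrays 2 and 4 together. The spread of the ratio over arrays (SD 1.49) was larger than that of 99.8% of the 453 probes within 0.5 log2 units of its brightness.

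CGA encodes the alpha subunit shared by LH, FSH and thyrotropin. Its probe (A_72_P077781, NM_214446) was the brightest of the 10, at 17.65, 18.16, 17.41 and 18.08 in the pregnant gilts of arrays 1 to 4, against 18.19, 17.53, 18.35 and 17.62 in the cyclic gilts. Every Cy5 value, of either group, lay above every Cy3 value. The limma fit gave a red over green effect of 0.64 ± 0.12 for this probe (unadjusted p = 0.00202, limma adjusted p = 0.477), where 10.3% of all probes fitted had a dye effect at an unadjusted p under 0.05. The ratios of pregnant over cyclic were -0.54, 0.63, -0.94 and 0.46, so they alternated with the dye. Averaged over both orientations they gave -0.099 ± 0.12, a fold of 0.934 with a 95% interval of 0.763 to 1.14 (limma adjusted p = 0.805). With the dyes read as a single orientation the same numbers would give -0.64 ± 0.12 (SE, limma adjusted p = 0.526), since group and dye are then the same thing. The estimate was -0.00052 without array 3, -0.20 without array 1 and 0.36 with background parameters estimated from all spots.

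GNRHR encodes the receptor through which the hypothalamus reaches the gonadotrope. Its brighter probe (A_72_P442062, NM_214273) stood at 11.17, 10.98, 11.54 and 10.39 in the pregnant gilts of arrays 1 to 4, against 12.35, 12.39, 11.53 and 10.42 in the cyclic gilts. The cyclic gilts of arrays 1 and 2, which were in different dyes, stood above the other 6 animals, and the pairs of arrays 3 and 4 were almost level. The ratios were -1.18, -1.41, 0.012 and -0.033. The limma estimate was -0.65 ± 0.29, a fold of 0.637 with a 95% interval of 0.384 to 1.06 (unadjusted p = 0.0707, adjusted p = 0.605).

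The other GNRHR probe (A_72_P146736) repeated this order. It stood at 9.57, 9.29, 9.95 and 8.80 in the pregnant gilts of arrays 1 to 4 and at 10.50, 10.53, 9.74 and 8.90 in the cyclic gilts. Its ratios were -0.93, -1.24, 0.21 and -0.10, within 0.07 to 0.24 of those of the brighter probe on each array. The limma estimate was -0.51 ± 0.26 (unadjusted p = 0.102, adjusted p = 0.613). As processed here, the values of both probes thus rested on 2 cyclic gilts. With median centring in place of loess normalization the ratios of the brighter probe were -1.66, -1.04, -0.62 and 0.58. With background parameters from all spots array 2 stood at -0.98 on the brighter probe and at -0.39 on the other. The brighter probe stood at -0.35 without array 1 and -0.31 without array 2, and at -0.95 without array 3 and -0.996 without array 4. With a single dye orientation it stood at 0.070 and the other probe at 0.15.

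OXT, which encodes oxytocin of the neural lobe, had ratios of a like order, at -0.67, -0.62, 0.025 and -0.16 on arrays 1 to 4 (limma estimate -0.36 ± 0.16, adjusted p = 0.605). Its level was 11.66, 12.63, 13.19 and 12.09 in the pregnant gilts of arrays 1 to 4, against 12.34, 13.26, 13.16 and 12.26 in the cyclic gilts. The cyclic gilt of array 2 was the highest of the 8 animals for OXT as for GNRHR, and that of array 1 stood lower for OXT, at 12.34. AVP, the other neural lobe gene looked for, was well above background in 1 of 4 pregnant and 2 of 4 cyclic channels. The summed level of both genes ranged from 11.72 to 13.20 in pregnant and from 12.29 to 13.27 in cyclic gilts. The part of neural lobe tissue in the GNRHR ratios was not tested.

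NR5A1 encodes steroidogenic factor 1, a nuclear receptor that in rodents binds the LHB and GNRHR promoters. Its brightest probe (A_72_P077746, NM_214179) stood at 10.30, 9.45, 9.95 and 9.67 in the pregnant gilts of arrays 1 to 4, against 10.24, 10.56, 10.20 and 9.89 in the cyclic gilts. Array 2 held both the lowest animal, a pregnant one, and the highest, a cyclic one, and the rest of the groups overlapped. The ratios were 0.060, -1.11, -0.24 and -0.21. The limma estimate was -0.38 ± 0.17, a fold of 0.770 with a 95% interval of 0.571 to 1.04 (unadjusted p = 0.0758, adjusted p = 0.605). Without array 2 it was -0.15 and without array 4 -0.60, and with a single dye orientation it was 0.29.

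The dimmer NR5A1 probes were, as processed here, both lowest on array 2 and differed elsewhere. The second probe (A_72_P444608) had ratios of -0.17, -0.90, -0.56 and 0.12 and the third (A_72_P444602) had 0.51, -0.74, -0.12 and -0.035. Array 2 was the lowest of the 4 arrays for all 3 probes, and array 1 differed by up to 0.68 between them. The limma estimates were -0.38 ± 0.19 and -0.096 ± 0.17 (adjusted p = 0.611 and 0.876). The third probe was dim, brighter than 14.8% of the probes fitted, and its sign turned under 4 of 17 alternatives.

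GATA2 encodes a zinc finger factor of gonadotropes and thyrotropes. Its single probe (A_72_P146636, NM_213879) stood at 6.33, 9.98, 10.08 and 10.18 in the pregnant gilts of arrays 1 to 4, against 8.26, 10.20, 10.31 and 10.41 in the cyclic gilts. On array 1 both animals were far below the other 6, and the pregnant channel there was not well above background. The ratios were -1.93 on array 1 and -0.22, -0.23 and -0.23 on arrays 2 to 4. The ratio of array 1 has a channel at background and no exact size, since it ranged from -4.27 to -0.97 over the ways of background correction and normalization. Arrays 2 to 4 were alike as processed here, but with median centring in its place they stood at 0.036, -0.81 and 0.37. The limma estimate, which takes the ratio of array 1 as it stands, was -0.65 ± 0.27 (unadjusted p = 0.0597, adjusted p = 0.605). Without array 1 it was -0.22. Without array 3, which left array 1 alone in its dye orientation, it was -1.08.

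**Figure D2:**
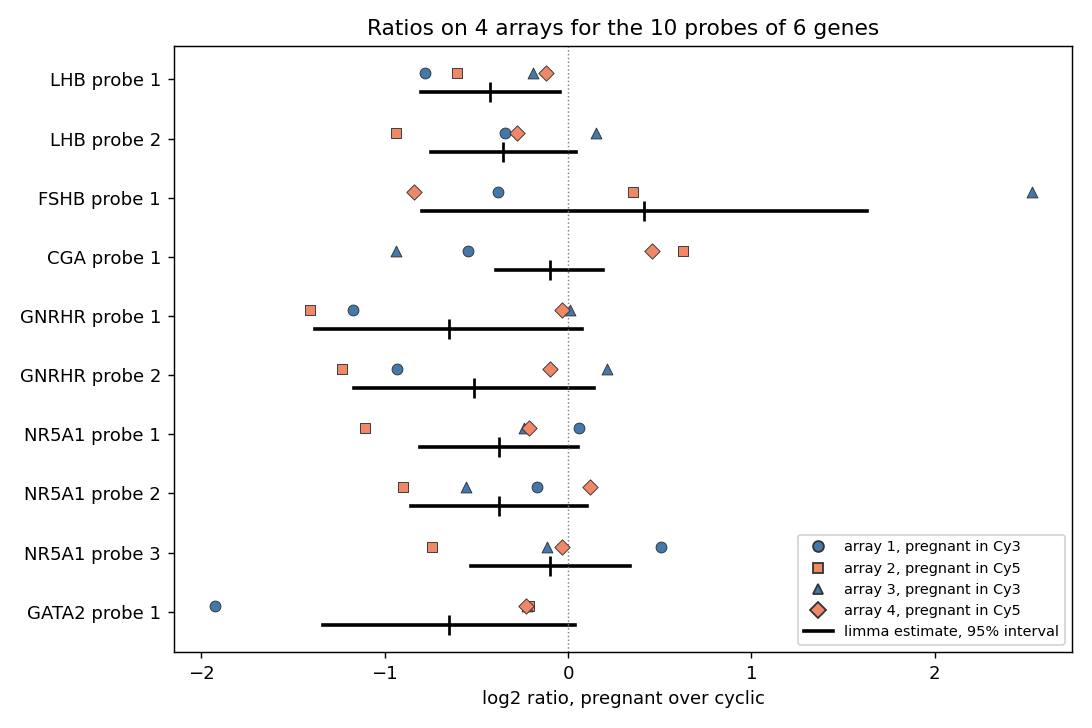
Log2 ratio of pregnant over cyclic (x axis) on each of 4 arrays for the 10 probes, numbered by brightness within a gene (y axis). Symbols mark arrays, fill marks the dye of the pregnant gilt, and the bar below is the limma estimate with its 95% interval. All intervals include 0 except that of the first LHB probe (-0.80 to -0.046, before adjustment for the number of probes), and FSHB on array 3 (2.53) and GATA2 on array 1 (-1.93) stand far from the other arrays.

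Whether the genes changed unequally was asked by subtracting their ratios on the same array. LHB minus CGA was -0.24, -1.23, 0.74 and -0.57 on arrays 1 to 4, with a mean of -0.32 ± 0.82 (SD, n = 4). LHB minus FSHB was -0.40, -0.96, -2.72 and 0.72, with a mean of -0.84 ± 1.44 (SD, n = 4). Both were below 0 on 3 of 4 arrays, with array 3 above 0 in the first and array 4 in the second. FSHB minus CGA averaged 0.51 ± 2.06, GNRHR minus LHB -0.23 ± 0.46, GNRHR minus NR5A1 -0.27 ± 0.69 and NR5A1 minus GATA2 0.27 ± 1.22 (SD, n = 4 each). Each of these had 2 arrays on either side of 0. These differences hold no dye term, so the SD and p of the pairs with CGA include its alternation with the dye, and NR5A1 minus GATA2 includes the array 1 ratio of GATA2. Flipping the signs of the 4 differences in all ways, an exact test read two-sided, gave p between 0.375 and 0.875 for the 6 pairs and an adjusted p of 0.875 for each. With 4 arrays this exact test cannot go below 1 in 8.

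The genes whose 4 ratios lay closest to those of each member were looked up among 2123 named genes above background in all 8 channels, by the root mean square difference on the log2 scale. Closest to LHB were COASY at 0.11, XIAP at 0.12 and SCAMP2 at 0.12. Closest to CGA were POMC at 0.086, RPL32 at 0.094 and FTH1 at 0.12, and all 3 alternated with the dye as CGA did. POMC, the precursor of adrenocorticotropin, had ratios of -0.55, 0.64, -0.84 and 0.31 on arrays 1 to 4. Closest to NR5A1 were NECTIN2 at 0.078, AGPAT2 at 0.086 and MORN4 at 0.10, with array 2 between -1.16 and -1.03. GNRHR, FSHB and GATA2 had no such close neighbours. The measure is not scaled to the size of the ratios. Their SD over arrays was 1.49 for FSHB, 0.85 for GATA2, 0.75 for GNRHR, 0.76 for CGA, 0.51 for NR5A1 and 0.32 for LHB. The 3 nearest to GNRHR were CALR at 0.23, PC at 0.23 and CD79A at 0.25, the 3 nearest to GATA2 were OXCT1 at 0.31, LCN2 at 0.31 and IGF2 at 0.35, and the 3 nearest to FSHB were SOCS5 at 0.62, ISG15 at 0.72 and VRK1 at 0.73. With 4 arrays such closeness is a description of these pairs of animals.

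Of 106 other genes of gonadotrope control, 43 had a probe fitted, by the brightest probe of each. None passed limma's adjusted threshold (0 of 43). At an unadjusted p under 0.05 were 4, all lower in pregnant gilts, which is 9.3% of the 43, where 4.59% of all probes fitted were lower and 3.43% higher. With a single dye orientation 0 of these 4 genes were at an unadjusted p under 0.05 in limma. Under that reading 6 of the 43 were, as were 2279 of the 25197 probes fitted. By the label fields the median estimate of all 43 genes was -0.012, against -0.0097 over all probes fitted.

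Signalling from the receptor to the gonadotropin genes gave 10 fitted genes, of which 0 were at an unadjusted p under 0.05, 7 had an estimate below 0 and the median was -0.028. The lowest p in it belonged to GNAS, the stimulatory G protein alpha subunit, at -0.21 ± 0.11, and to RGS4, a regulator of G protein signalling, at 0.40 ± 0.22 (limma adjusted p = 0.620 and 0.622). FOS, an immediate-early factor downstream of the receptor, varied widely, with ratios of 1.22, -1.11, -1.88 and 0.036. GNAQ, the G protein subunit that couples the receptor to phospholipase C, stood at -0.016 ± 0.0998.

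Transcription factors and steroid receptors gave 8 fitted genes with a median of 0.044, 2 of them lower at an unadjusted p under 0.05. ESR1, the estrogen receptor alpha, stood at 8.32, 8.13, 8.39 and 8.26 in the pregnant gilts of arrays 1 to 4 and at 9.16, 8.78, 9.01 and 8.23 in the cyclic gilts. Only array 4 was level, but the 2 other ESR1 probes had estimates of the opposite sign. The estimate of -0.52 ± 0.15 became -0.21 with a single dye orientation, and left the unadjusted threshold without array 1 (-0.46) or array 2 (-0.35). PGR, the progesterone receptor, which in rodents takes part in the self-priming of the gonadotrope by GnRH, had an estimate of -0.55 ± 0.21, to which array 3 gave a ratio of -1.83 and array 4 one of 0.40. It left the unadjusted threshold without array 2 (-0.44), array 3 (-0.27) or array 4 (-0.67), and was -0.84 without array 1. Limma's adjusted p was 0.605 for both. NR0B1, which encodes DAX-1, a repressor of steroidogenic factor 1, stood at 0.060 ± 0.11.

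Activin and inhibin control of FSHB was the best covered group, with 14 of 17 genes fitted, a median of -0.035 and 10 estimates below 0. TGFBR3, the betaglycan coreceptor that lets inhibin oppose activin, was the 1 member at an unadjusted p under 0.05. Its ratios were -0.63, -0.14, -0.75 and -0.24 on arrays 1 to 4, all below 0, as for 7.73% of all probes fitted. The limma estimate was -0.44 ± 0.099 (adjusted p = 0.605), and it was -0.25 with a single dye orientation. The probe was dim, at a mean log2 intensity of 7.80. FST, which encodes the activin-binding follistatin, was above 0 on 4 of 4 arrays, as were 6.79% of all probes fitted, at 0.28 ± 0.13, while its other probe had an estimate of the opposite sign. INHBA, an activin and inhibin beta subunit, stood at 0.14 ± 0.10. Neither was at an unadjusted p under 0.05.

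Secretion and hormone maturation gave 8 fitted genes with a median of -0.045, 1 of them lower at an unadjusted p under 0.05. That was CHGA, the chromogranin A of secretory granules, at 9.80, 10.06, 10.18 and 9.82 in the pregnant gilts of arrays 1 to 4, against 10.76, 10.97, 10.47 and 9.91 in the cyclic gilts. As for LHB and GNRHR, the cyclic gilts of arrays 1 and 2 were the highest of the 8. Its ratios were -0.96, -0.91, -0.29 and -0.086 (limma estimate -0.56 ± 0.19, adjusted p = 0.605). It left the unadjusted threshold without array 1 (-0.39) or array 2 (-0.36), and stood at -0.063 with a single dye orientation. SCG2, the granin secretogranin II, stood at 0.15 ± 0.13. The group of other inputs to the gonadotrope had 3 of 16 genes fitted, GNRH1 at 0.44 ± 0.19, KISS1R at 0.23 ± 0.11 and IGF1R at 0.098 ± 0.12, with 0 at an unadjusted p under 0.05. GNRH1 ranged from 0.18 without array 4 to 0.71 without array 2. It stood at 0.024 with a single dye orientation and at 1.34 with the processed intensities. Its probe was dim, at a mean log2 intensity of 7.11, and well above background in 7 of 8 channels.

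The other cells of the gland also varied between the animals of a pair. TSHB, the thyrotropin subunit of the cells that share CGA and GATA2 with gonadotropes, had ratios of -1.67, 4.48, -3.02 and -4.20 on arrays 1 to 4. GATA2 was lowest on array 1, where TSHB stood at 15.38 in the pregnant gilt and 17.05, the highest of the 8 animals, in the cyclic gilt. GH1, growth hormone, was lowest on array 3 at -2.497, and PRL, prolactin, stood at -0.77, -0.38, 0.19 and -0.29. PCSK2, used as a marker of the intermediate lobe, stood at 1.43, -0.55, -0.82 and 1.56 and was well above background in 7 of 8 channels. COL1A2, a collagen gene of stromal cells, was like LHB, GNRHR and CHGA highest in the cyclic gilts of arrays 1 and 2, at 12.59, 12.59, 12.81 and 12.39 in the pregnant gilts of arrays 1 to 4, against 13.38, 13.40, 12.40 and 12.96 in the cyclic gilts. DCN, the other of 4 stromal genes with a probe, had ratios of -1.16, 0.53, -0.33 and 0.55, and the summed level of both ranged from 12.97 to 13.62 in pregnant and from 13.16 to 13.90 in cyclic gilts. The part of these cells in the gonadotrope values was not tested.

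**Figure D3:**
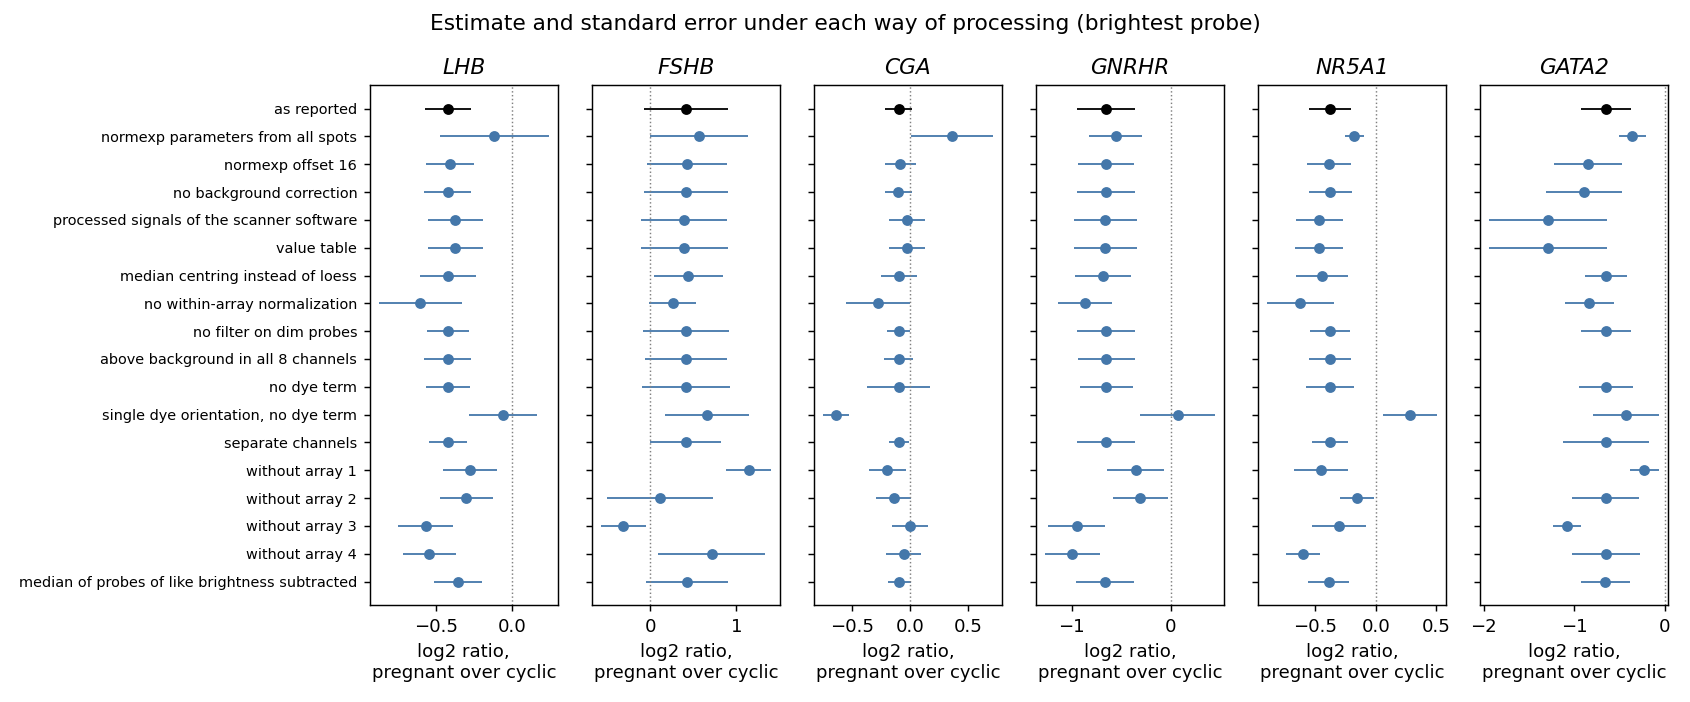
Limma estimate of log2 pregnant over cyclic with its standard error (x axis) for the brightest probe of each gene under each way of processing (y axis), the reported one in black. LHB stays below 0 in all, near 0 (-0.062) with a single dye orientation, FSHB turns to -0.31 without array 3, CGA turns to 0.36 with background parameters from all spots, and GATA2 lies between -1.29 and -0.22.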

How the data were processed

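Agilent Feature Extraction, in version 10.7.3.1 per the file headers, turned the scans into spot values. Used from the deposited files were the median intensities of spot and local background and the processed intensities. The authors' value table holds log2 ratios whose making is not given in the sources used here. For 43553 probes spotted once they equalled, within 0.001, log2 of the processed intensities turned to pregnant over cyclic by the label fields.

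With limma 3.58.1 (R 4.3.3, jsonlite 2.0.0 and version 1.17.8 of the package data.table), intensities were corrected by normexp (offset 50, parameters without spots marked as outliers) and normalized by loess (span 0.3, 1417 control spots at weight 0). Outlier spots, 26 to 63 per array, were left out. A probe was kept if 4 or more of its 8 channels were well above background, which left 25197 of 43603, and all 10 probes of the 6 genes passed. The limma fit had a dye term per probe. Its p-values were adjusted over all probes by Benjamini-Hochberg, and the threshold was 0.05. The standard error is what remains after the dye effect. With 1 array left out, the array alone in its dye orientation is fitted exactly, so the residual spread comes only from the other orientation. Levels per animal were scaled between arrays by Aquantile. Symbols came from RefSeq accessions of Sscrofa11.1, for 6700 probes.

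Members, gene lists and tests were chosen with earlier results of these data known. Besides the 6 genes, the rule named list members at an unadjusted p under 0.05, in lists without one the 2 of lowest p, and the 3 genes of nearest ratios. FOS, GNAQ, NR0B1, FST, INHBA, SCG2 and IGF1R were named after their values were seen. The other lists of cell markers gave 1 of 1 folliculostellate, 3 of 3 endothelial and 2 of 2 stromal genes with a probe above background in all 8 channels, and 0 blood genes with a probe. The number of arrays limits the precision.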

Additional observations from a re-analysis of the deposited data

Results flagged for a closer look

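Of 38 groups of 4 values examined, 3 held 1 value far from the other 3 by Dixon's criterion at 95% (critical value 0.829), which chance alone meets in about 1 group in 20. All 3 belong to the GATA2 probe on array 1. Its log2 ratio of pregnant over cyclic there was -1.93, its level in the pregnant gilt 6.33 and its level in the cyclic gilt 8.26. Before normalization the background-subtracted intensity was 26 in the pregnant and 420 in the cyclic gilt of array 1, against 685 to 1520 in the other pregnant and 902 to 1584 in the other cyclic gilts. The spot carried 0 outlier marks on the 4 arrays.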

How the results depend on the processing

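No member probe passed limma's adjusted threshold under any of the 17 alternatives run (smallest adjusted p = 0.137, for GNRHR without within-array normalization). LHB and GATA2 kept a negative estimate in each, between -0.60 and -0.062 and between -1.29 and -0.22 by the alternatives run for them. GATA2 could not be fitted with the filter of all 8 channels. LHB's brighter probe was at an unadjusted p under 0.05 in limma in 9 of 17. These 17 are not independent checks. The processed intensities and the authors' value table hold the same ratios, with an LHB estimate of -0.37 in each. Changing the filter, dropping the dye term or fitting separate channels left it at -0.42.

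With a single dye orientation GNRHR stood at 0.070 and 0.15 (brighter and other probe), NR5A1 at 0.29, 0.014 and 0.29, the other LHB probe at 0.26, GNAS at 0.043, KISS1R at -0.14, LHB minus CGA at 0.58 and GNRHR minus LHB at 0.13. With background parameters from all spots CGA stood at 0.36, the third NR5A1 probe at 0.022 and GNAS at 0.20, and without within-array normalization KISS1R at -0.042. With 1 array left out, estimates ranged from -0.31 to 1.14 for FSHB, from -0.27 to 0.081 for the third NR5A1 probe, from -0.47 to 1.12 for FSHB minus CGA, from -0.45 to 0.045 for GNRHR minus NR5A1 and from -0.30 to 0.66 for NR5A1 minus GATA2. The causes were not tested.

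Over all probes limma called 0 at the adjusted threshold and 2019 at an unadjusted p under 0.05. It called 2 with an offset of 16, 127 without within-array normalization and 4 with separate channels, and 0 to 8 with 1 array left out. At an unadjusted p there were 3140 without a filter, 3561 with separate channels and 926 to 3242 with 1 array left out. Of the listed genes, 4 were at an unadjusted p under 0.05, 9 with separate channels and 3 to 7 with 1 array left out. Every fit on ratios is paired, since an array holds 1 pregnant and 1 cyclic gilt.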
